A study of Mus musculus with 6 samples.

Results

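The nuclear genes for proteins of the mitochondrial ribosome were examined in cardiomyocytes of doxorubicin-treated mice. They were taken by name, as every row of the expression table whose symbol starts with Mrpl (large subunit) or Mrps (small subunit) followed directly by a digit, leaving out symbols ending in -ps. This gave 78 genes of 24972 rows, 49 with a large and 29 with a small subunit symbol, and none (0) was left out for the suffix. RNA-seq libraries came from heart cells of 6 mice, all of the MX1gfp genotype, which the vehicle group carries too. The vehicle group (n = 3) was injected intraperitoneally with 100 microlitres of phosphate-buffered saline, and the doxorubicin group (n = 3) with doxorubicin at 25 mg/kg in the same volume and buffer. Cells were collected 48 h later from collagenase-digested ventricles, and the myocytes were enriched by letting them settle under gravity, with no sorting. The labels state no age or sex.

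Mitochondria keep a small genome of their own, whose protein-coding genes specify core subunits of the respiratory chain and of ATP synthase. These subunits are made inside the organelle by the mitochondrial ribosome (mitoribosome), whose RNAs come from mitochondrial DNA and whose proteins are all encoded in the nucleus, made in the cytosol and imported. Some of these proteins have counterparts in bacterial ribosomes and others are specific to mitochondria. The heart depends heavily on oxidative phosphorylation, and inherited defects in human MRPL3, MRPL44, MRPS14 and MRPS22 are known causes of cardiomyopathy in infants. Doxorubicin is an anthracycline that poisons topoisomerase II and is used against tumours, and damage to the heart limits its dose. Transcripts of the mitochondrial genome itself were not analysed here.

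Since the genes of this ribosome had fold changes of the same sign, their promoters were read from RefSeq windows of 300 bases, 250 before the start of transcription and 50 after it. Windows were found for 69 of the 78 genes (75 windows, since some genes have more than 1 start). The sequences printed come from the 2 genes of each subunit, among those with a window, that were lowest in doxorubicin relative to vehicle (Mrpl12 and Mrpl34, Mrps36 and Mrps27), and from the 1 of each that differed least (Mrpl24 and Mrps5). Each is the longest stretch of the 250 upstream bases that lies in no annotated exon of GENCODE M21, written 5′ to 3′ on the gene's strand in GRCm38.p6 coordinates. Capitals mark matches, on either strand, to any of 6 motifs: the ETS motif CCGGAAG (a family of factors that includes GABP), the YY1 motif AAGATGGC, the TATA box TATAAA, the CCAAT box, the palindromic motif of nuclear respiratory factor 1 (NRF1), and the longer motif of ZNF143, which was added to the search after sequences had been seen. The NRF1 and ZNF143 motifs allow any base at 2 inner positions. Windows do not always sit at the outermost start of the RefSeq gene span: in 48 of the 69 genes a window did, and in 14 none lay within 100 bases of it. Of the genes printed, the window start of Mrpl24 lies 1413 bases inside the gene span and that of Mrps27 lies 19 bases inside it, and the other 4 windows sit at the outer start.
Mrpl12 (chr11:120484387-120484612, strand +): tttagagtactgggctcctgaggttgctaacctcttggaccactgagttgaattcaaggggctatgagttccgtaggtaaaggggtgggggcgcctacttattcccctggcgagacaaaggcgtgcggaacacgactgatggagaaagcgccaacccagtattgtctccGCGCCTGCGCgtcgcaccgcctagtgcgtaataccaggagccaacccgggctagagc
Mrpl34 (chr8:71464676-71464925, strand +): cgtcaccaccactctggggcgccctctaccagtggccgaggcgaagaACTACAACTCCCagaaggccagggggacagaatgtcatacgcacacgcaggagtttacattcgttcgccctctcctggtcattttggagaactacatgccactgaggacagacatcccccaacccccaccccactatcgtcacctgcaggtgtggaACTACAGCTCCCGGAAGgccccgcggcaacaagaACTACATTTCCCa
Mrps36 (chr13:100744660-100744909, strand -): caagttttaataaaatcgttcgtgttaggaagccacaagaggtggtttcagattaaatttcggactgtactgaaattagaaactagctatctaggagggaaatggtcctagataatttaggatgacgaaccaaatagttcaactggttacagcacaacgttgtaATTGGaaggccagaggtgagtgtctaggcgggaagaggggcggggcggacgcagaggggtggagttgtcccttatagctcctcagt
Mrps27 (chr13:99344706-99344785, strand +): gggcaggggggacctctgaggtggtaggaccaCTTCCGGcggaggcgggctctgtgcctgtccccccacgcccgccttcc
Mrpl24 (chr3:87919294-87919505, strand +): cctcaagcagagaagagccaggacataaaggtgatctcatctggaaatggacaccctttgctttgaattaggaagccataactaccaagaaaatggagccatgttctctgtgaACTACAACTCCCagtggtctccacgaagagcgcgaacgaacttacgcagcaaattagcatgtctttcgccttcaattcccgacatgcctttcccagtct
Mrps5 (chr2:127587176-127587221, strand +): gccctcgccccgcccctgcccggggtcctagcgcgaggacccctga
Mrpl12 holds an NRF1 match. Mrpl34 holds 3 ZNF143 matches, of which 1 overlaps an ETS match. Mrps36 holds a CCAAT match read from the opposite strand, Mrps27 an ETS match, and Mrpl24 a ZNF143 match, while the stretch of Mrps5 holds none of the 6.

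Over all members, ETS matches were found in 34.7% of the 75 windows, against 8.86% of 32851 windows of the same length over all genes. NRF1 matches were found in 18.7% against 6.23%, and YY1 matches in 16% against 2.75%. ZNF143 matches were found in 6.67% against 1.81%. CCAAT boxes were found in 40.0% against 37.4%, and TATA boxes in 6.67% against 13.6%. The 32851 windows include genes not tested here. Of tested genes with a window, 1949 had an ETS match and 7856 had none, against 26 of 69 member genes with one. For NRF1 the numbers were 1467 and 8338 against 14 of 69, and for YY1 508 and 9297 against 12 of 69. For ZNF143 they were 471 and 9334 against 5 of 69. These contrasts were smaller than those over all windows. The member windows were also richer in G and C, with a median of 58.7% against 52.7%, and no comparison with windows of matched G and C content was made. Of 118 matches in member windows, 1 pair of different motifs overlapped, and 12 windows held none of the 6. A match is a description of the letters and not a binding site.

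The deposited values are normalized read counts per gene. Their totals ran from 7217949 to 7500386 in vehicle libraries and from 5410780 to 6498373 in doxorubicin libraries, and the depth estimated from the steps between low values ran from about 7710000 to 11370000 reads in vehicle and from about 3670000 to 6170000 in doxorubicin. All 78 members passed the filter on low values (a mean of at least 10 over the 6 libraries), with means from 135 to 2114. The lowest value of any member in the shallowest library, doxorubicin replicate 3, was 73.0 (Mrps22), about 49.5 reads. The labelled cell type was checked against 8 cardiomyocyte markers: they made up 8.28% to 9.25% of the total in vehicle libraries, but 8.0%, 2.92% and 2.78% in doxorubicin replicates 1, 2 and 3. All 10 macrophage markers had higher means in doxorubicin, with summed shares of 0.0332% to 0.0378% in vehicle and 0.0638% to 0.286% in doxorubicin. So did 6 of 7 fibroblast markers (0.0811% to 0.111% against 0.129% to 0.374%), 6 of 7 endothelial markers (0.204% to 0.291% against 0.449% to 0.677%) and the 4 neutrophil markers tested. Ly6g, another neutrophil marker, was at 0 in 4 libraries and was not tested. By the medians of cardiomyocyte, fibroblast, macrophage and neutrophil markers, doxorubicin replicate 1 stood nearer to the vehicle libraries than the other doxorubicin libraries did. By the medians of endothelial, atrial, mural and erythroid markers it did not. The members followed the first pattern, which touches every count below.

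Every mitoribosomal protein transcript was lower on average in doxorubicin than in vehicle. The log2 fold change, on the scale log2(value + 1), was negative in 78 of 78 members, against 50.4% of the 12477 genes tested. Its median was -0.79 over the members, with quartiles of -0.92 and -0.65, and -0.005 over all genes. The distance between the members' quartiles was 0.27, against 0.83 over all genes. Quartiles were -1.02 and -0.81 for 75 respiratory chain subunits, and -0.11 and 0.09 for 78 cytosolic ribosomal protein genes. The closeness was therefore not particular to the members. In 72 of the 78 members, all 3 doxorubicin values lay below all 3 vehicle values, a pattern seen in 22.6% of all genes tested, and in 0 members did the groups separate the other way (19.2% of all genes). In bulk samples such as these, fewer cells of a type and less RNA per cell cannot be told apart.

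None of these differences passed the test that was applied to each gene. limma, with p-values adjusted by the Benjamini-Hochberg method over all 12477 genes, called 0 members and 0.0% of all genes at an adjusted p of 0.05. Adjusted p-values of the members ran from 0.0859, the lowest of any gene, to 0.512. The lowest value was shared by 46 members and by genes outside the set, such as Ndufs6 and Ptcd2, so it does not rank them. At an unadjusted p of 0.05, limma gave 71 members, all lower in doxorubicin, against 19.3% of all genes lower at that level. At an adjusted p of 0.10 it gave 64 members lower, against 13.1% of all genes. With doxorubicin replicate 1 left out, limma called 73 of 78 members lower (45 large, 28 small) at an adjusted p of 0.05, against 21.8% of all genes lower. With any 1 of the other 5 libraries left out, limma called 0 members, and the lowest adjusted p of a member was 0.166 to 0.256. Of the members, 48 to 69 were at an unadjusted p of 0.05 in these fits, for which the share of all genes was not computed. Doxorubicin replicate 1 is the treated library nearest to vehicle for most members. The 5 members not called without it were Mrpl14, Mrpl24, Mrpl33, Mrpl36 and Mrps18c. With libraries weighted by their agreement with their group, in which doxorubicin replicate 1 received a weight of 0.277, 64 members were called lower, against 18.6% of all genes.

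**Figure D1:**
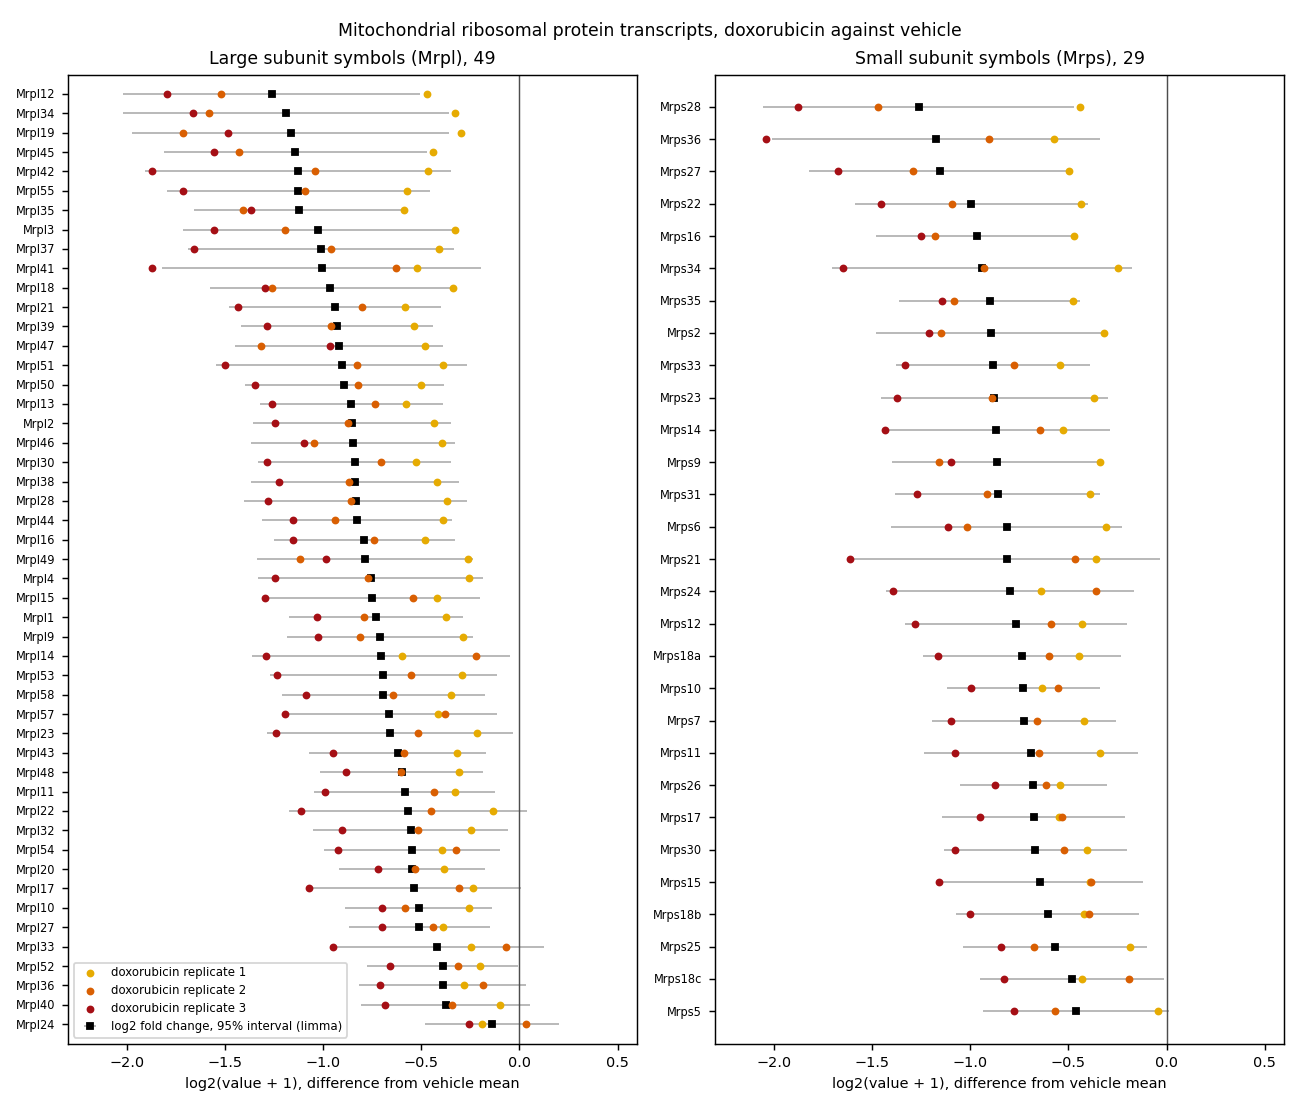
Change of each of the 78 transcripts on the log2(value + 1) scale, large subunit symbols on the left and small on the right. Coloured points are the 3 doxorubicin libraries relative to the vehicle mean, squares the fold change of limma and bars its 95% interval. All squares lie left of 0, from -1.26 to -0.14, and doxorubicin replicate 1 lies nearest to 0 in most rows.

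The size of the difference depended on the library. Relative to the vehicle mean, the median member stood at -0.39, -0.72 and -1.20 in doxorubicin replicates 1, 2 and 3. Even in replicate 1, 75 of 78 members were below the lowest vehicle value, as were 75 in replicate 2 and 78 in replicate 3. The value was highest in replicate 1, then replicate 2, then replicate 3 in 61 members (78.2%), against 22.4% of all genes tested. Cardiomyocyte markers gave medians of -0.43, -1.85 and -2.36 in the same libraries and macrophage markers 0.64, 1.31 and 2.56, and their part in the members' differences was not tested. Split by transcripts of Xist or of Y-linked genes, the members' median was -0.77 in the Xist libraries (1 vehicle, 2 doxorubicin) and -0.75 in the others (2 and 1), and all 78 were negative in both. In replicate 1 the median cardiomyocyte marker and the median member thus differed from vehicle by about the same amount, and in the other doxorubicin libraries the markers were further down.

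As a share of all normalized counts, the 78 transcripts together took 0.594%, 0.519% and 0.499% in vehicle and 0.457%, 0.375% and 0.299% in doxorubicin. The groups did not overlap, and the share in doxorubicin replicate 3 was the lowest. The choice of scale matters for the size: the median of all genes moves from -0.005 up to 0.29 when libraries are set to equal totals, and the members' median is then -0.49, with 47 of 78 members not overlapping, against 10.1% of all genes. On that scale 77 members stayed negative and Mrpl24 turned to 0.16, with an adjusted p of 0.452 from limma.

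The large and the small subunit did not separate. Their median log2 fold changes were -0.79 and -0.81, a difference of 0.027. The summed large subunit counts were 2.08, 2.06 and 2.12 times the small in vehicle and 2.13, 2.01 and 2.08 times in doxorubicin, or 2.09 ± 0.032 and 2.07 ± 0.061 (mean ± SD, n = 3 each). These ratios overlapped between the groups. Symbols do not match the assembled particle in every case, since the products of Mrps18a and Mrps30 sit in the large subunit of solved structures. With the genes sorted by structure, the medians were -0.76 for 51 large and -0.81 for 26 small subunit genes.

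Within the large subunit, the genes of the stalk were less different from vehicle than most, apart from Mrpl12. The stalk recruits translation factors to the ribosome. Mrpl12, its multi-copy protein, which also binds the mitochondrial RNA polymerase, had 1914, 1680 and 1706 normalized counts in vehicle and 1272, 615 and 507 in doxorubicin replicates 1 to 3. The groups were far apart, and replicate 1 stood between the others and the vehicle group. At -1.26 (SE 0.32, adjusted p = 0.0859 from limma), its log2 fold change was the most negative of the large subunit, and the means were 1767 ± 128 and 798 ± 414 (SD, n = 3 each). Mrpl10, which anchors Mrpl12 to the particle, had 499.8, 450.3 and 502 in vehicle and 405, 322 and 297 in doxorubicin, a log2 fold change of -0.51 (SE 0.16). Mrpl11, at the base of the stalk, had 461, 414 and 399 against 337, 313 and 213, with -0.58 (SE 0.20). For both, the groups were separate but the step was smaller than that of Mrpl12. With Mrpl53 (-0.69) and Mrpl54 (-0.55), the 5 stalk genes had a median of -0.58, and all 5 had non-overlapping groups. So did 72 of all 78 members, against 22.6% of all genes tested with doxorubicin lower, so this is not particular to the stalk.

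Proteins around the exit of the polypeptide tunnel, where new chains leave toward the inner membrane, covered the widest range. Mrpl45, which ties the ribosome to the inner membrane, had 549.8, 491 and 533 in vehicle and 386, 194 and 178 in doxorubicin, a log2 fold change of -1.14 (SE 0.29). All doxorubicin values were below the vehicle range, and those of replicates 2 and 3 were far below it. Mrpl24 lay at the other end: 392, 362 and 337 in vehicle and 318, 371 and 303 in doxorubicin. Its groups overlapped, with replicate 2 inside the vehicle range, and at -0.14 (SE 0.15, adjusted p = 0.512 from limma) it was the least negative of all members. Mrpl22 (218, 179.7 and 172 against 172, 138 and 86.8, -0.57) also overlapped, by a small margin at the value of replicate 1. Mrpl17 had 403, 342 and 377 against 317, 301 and 177, and -0.54, with separate groups. Mrpl23 and Mrpl47 were at -0.66 and -0.92, and the median of the 6 genes was -0.61.

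The central protuberance, which contacts the small subunit and the transfer RNAs, gave 7 genes with a median of -0.69, all with separate groups. Groups were separate in 72 of all 78 members and, with doxorubicin lower, in 22.6% of all genes tested. Mrpl58, a peptidyl-tRNA hydrolase that became part of the ribosome, had 417, 319 and 313 in vehicle and 272, 222 and 163 in doxorubicin, a log2 fold change of -0.69 (SE 0.22). Mrpl40 had 244, 211 and 216 against 209, 176 and 138, and -0.38 (SE 0.18). Its vehicle and doxorubicin groups touched closely, at 211 and 209. The others ran from -0.96 (Mrpl18) to -0.51 (Mrpl27).

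Other large subunit proteins with bacterial counterparts were 20 genes with a median of -0.81. Mrpl35 had 402, 401 and 386 in vehicle and 263, 149 and 153 in doxorubicin. The vehicle libraries were nearly equal, and the log2 fold change of -1.12 (SE 0.23) had the smallest unadjusted p of the members (0.00146, limma). Mrpl34 had 520.2, 358 and 417 against 340.1, 142 and 134, with -1.19 (SE 0.36). Mrpl19 had 274, 263 and 301 against 227, 84.3 and 99.0, with -1.16 (SE 0.35). In both of these, replicates 2 and 3 lay further below replicate 1 than replicate 1 lay below the vehicle mean. Mrpl3, which lies close to the peptidyl transferase centre, had 795, 680.3 and 727 against 583, 319.7 and 248.7, with -1.03 (SE 0.30).

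This class also held Mrpl32 and Mrpl33, whose groups overlapped, and Mrpl36, whose groups were nearly in contact. Mrpl33 had 516, 499 and 456 in vehicle and 413, 468 and 253 in doxorubicin, with -0.42 (SE 0.23). Mrpl32, whose product is matured by a protease of the inner membrane, had 295, 323 and 232 against 237, 196 and 149.8, with -0.55 (SE 0.21). Mrpl36 had 301, 247 and 267 against 223, 238 and 165, with -0.39 (SE 0.18). In Mrpl33 and Mrpl36 it was replicate 2, not replicate 1, that lay nearest to the vehicle libraries, and only Mrpl36 of the 3 had separate groups.

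Large subunit proteins specific to mitochondria and outside the regions above were 11 genes with a median of -0.89, and in all 11 the groups were separate. That held for 72 of all 78 members and, with doxorubicin lower, for 22.6% of all genes tested. Mrpl42 had 3103, 2855 and 2541 in vehicle and 2041, 1371 and 772 in doxorubicin, a log2 fold change of -1.13 (SE 0.33). Mrpl39 had 538, 453 and 545 against 352, 262 and 208, with -0.93 (SE 0.21). Mrpl41, also described as a regulator of apoptosis, had 557, 508 and 421 against 342, 317 and 134, with -1.01 (SE 0.35). The value in replicate 3 was far below the others for Mrpl41 and Mrpl42, and less so for Mrpl39. Mrpl44, which has a ribonuclease III-like fold, had 435, 415 and 455 against 331, 227 and 195, with -0.83 (SE 0.21). Mrpl52 had 210.1, 218 and 207 against 184, 170.2 and 134, with -0.39 (SE 0.16), the least negative of the class.

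In the small subunit, 16 genes with bacterial counterparts had a median of -0.78. Mrps28 had 348, 302 and 298 in vehicle and 232, 113 and 85.0 in doxorubicin, and its log2 fold change of -1.26 (SE 0.34) was the most negative of the small subunit. Mrps16, mutated in a fatal infantile form of respiratory chain deficiency, had 386, 374 and 359.6 against 269, 164 and 156, with -0.97 (SE 0.22). Mrps2 had 390.1, 339 and 318 against 279, 156 and 150.0, with -0.89 (SE 0.25). In these 3 genes replicates 2 and 3 were closer to each other than to replicate 1, and below it. Mrps14 had 381, 326 and 317 against 235, 217 and 125, with -0.87 (SE 0.25). Mrps12, at the decoding centre, had 335, 258 and 277 against 214, 191 and 118, with -0.76 (SE 0.24), and Mrps7 had 686, 605 and 548 against 456, 386 and 285, with -0.73 (SE 0.20). Here replicate 3 stood lowest and replicates 1 and 2 were nearer to each other.

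Mrps5 and Mrps18c were the small subunit genes with overlapping groups. Mrps5, which takes part in decoding, had 294, 307 and 323 in vehicle and 298, 208 and 179 in doxorubicin, with -0.46 (SE 0.20). The overlap came from replicate 1, which lay within the vehicle range. Mrps18c had 225, 224 and 182 against 155, 183 and 118, with -0.48 (SE 0.20), and there the overlap came from replicate 2. Mrps21 had 997, 836 and 690.0 against 648, 601 and 271, with -0.81 (SE 0.34), and its groups were separate.

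The 10 small subunit genes specific to mitochondria had a median of -0.88, and in all 10 the groups were separate. Separate groups were also found in 72 of all 78 members and, with doxorubicin lower, in 22.6% of all genes tested. Mrps27, a pentatricopeptide repeat protein, had 379, 391 and 445 in vehicle and 287, 164 and 126 in doxorubicin, with -1.15 (SE 0.29). Mrps22 had 203, 201 and 199.9 against 149, 94.0 and 73.0, with -0.99 (SE 0.26). Its vehicle libraries were almost equal (202 ± 1.72, SD, n = 3), so the spread came from the doxorubicin group (105 ± 39.1). Mrps34 had 458, 359 and 379 against 334, 208 and 126, with -0.94 (SE 0.33). Mrps35 had 662, 662 and 624 against 466, 306 and 293, with -0.90 (SE 0.20) and the smallest unadjusted p of the small subunit (0.00217, limma). Mrps26 had 286, 237 and 239 against 173, 165 and 138, with -0.68 (SE 0.16), and Mrps25 had 281, 265 and 230.3 against 226, 161 and 143, with -0.57 (SE 0.20). In Mrps26 the 3 doxorubicin libraries were close together, and replicate 1 was not set apart from the others.

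The Mrps18 family shows how paralogs with different places in the particle compared. Mrps18a, whose product lies in the large subunit, had 638, 529 and 489.5 in vehicle and 403, 363 and 245 in doxorubicin, with -0.73 (SE 0.22). Mrps18b, in the small subunit beside Mrps18c, had 263, 228 and 227 against 179, 181 and 119, with -0.61 (SE 0.20). The differences among the 3 paralogs were not tested, and their standard errors were 0.20 to 0.22. Mrps30, the other Mrps gene of the large subunit, had 444, 403 and 387 against 310.3, 285 and 194, with -0.67 (SE 0.20). Mrps36 carries the name of a ribosomal protein but is known as a subunit of the 2-oxoglutarate dehydrogenase complex of the citric acid cycle. It had 988, 779.5 and 733 against 555, 442 and 200.1, with -1.17 (SE 0.36). Its value in replicate 3 was the lowest of any member relative to vehicle, at -2.04.

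**Figure D2:**
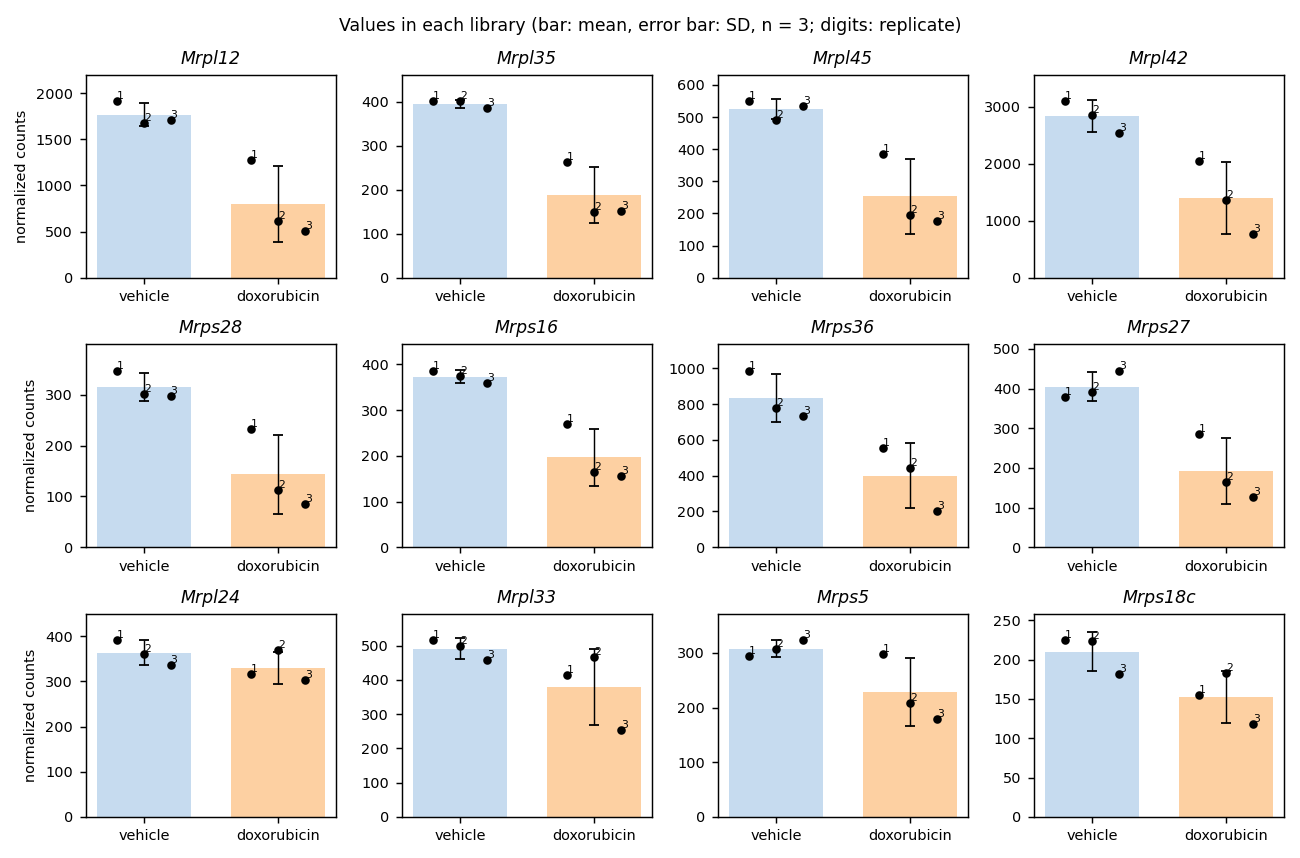
Normalized counts of 12 members in each library, with bars for the group mean and error bars for the SD (n = 3). The upper 8 genes have separate groups, as in Mrpl12 (1680 or more in vehicle, 1272 or less in doxorubicin). In the 4 genes of the bottom row the groups overlap.

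Between genes, levels can be compared only per length, here as vehicle normalized counts per 1000 bases of transcript. Mrpl42 stood highest at 4270, followed by Mrps21 at 1884, Mrpl30 at 1577, Mrpl12 at 1343 and Mrps36 at 1310. The 5 lowest were Mrps25 at 42.6, Mrpl17 at 51.3, Mrpl19 at 55.8, Mrpl47 at 56.5 and Mrps26 at 59.4. Their transcript models are long, from 3364 bases for Mrpl47 to 7300 bases for Mrpl17, so the low levels per length rest on the length model used. In doxorubicin, Mrpl42 was still the highest, with 3077, 2066 and 1163 per 1000 bases in replicates 1 to 3. Mrpl30 had 1310.1, 1286 and 1263 normalized counts in vehicle and 893, 788 and 526 in doxorubicin, with a log2 fold change of -0.84 (SE 0.21) and no overlap. Across the 78 members, those with higher vehicle counts tended to have more negative fold changes (Pearson's r = -0.44, Spearman's rho = -0.43). These points share the same 6 libraries and the vehicle values enter both axes, so the correlation is a description only.

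The other proteins and factors of mitochondrial translation were lower as well. Beside the counts below, 50.4% of all genes tested were negative and 22.6% had separate groups with doxorubicin lower. Of 5 mitoribosomal proteins with other symbols, all 5 had negative log2 fold changes, 4 had separate groups, and the median was -0.74. Ptcd3, a small subunit protein, had 1188, 1475 and 1411 in vehicle and 939, 569 and 492 in doxorubicin, with -1.08 (SE 0.25). Dap3, a GTP-binding small subunit protein linked to apoptosis, had 791, 769 and 718 against 632, 581 and 339, with -0.60 (SE 0.24). Aurkaip1, with -0.54, was the 1 gene of the 5 whose groups overlapped, and Chchd1 and Gadd45gip1 were at -0.74 and -0.86.

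Of 24 genes for assembly of the mitoribosome, 24 had negative fold changes and 22 had separate groups, with a median of -0.70. Mtg1, a GTPase of large subunit assembly, had 169, 167 and 149 in vehicle and 115, 45.6 and 20.8 in doxorubicin, with -1.73 (SE 0.53). Mrm3, a methyltransferase of the large ribosomal RNA, had 160.1, 165 and 159 against 114, 31.3 and 40.4, with -1.60 (SE 0.43). Both were further down than any member of the ribosome itself. Fastkd2, an RNA-binding protein of the large subunit pathway, had the smallest unadjusted p of the list (0.00238, limma), with -0.88 (SE 0.20). Mpv17l2 (-0.24) and Malsu1 (-0.38) had overlapping groups.

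Of 16 translation factors and regulators, 15 were in the table and tested. All 15 were negative and 13 had separate groups, with a median of -0.76. Lrpprc, which stabilizes mitochondrial messenger RNAs, had 1560.4, 1935 and 2285 in vehicle and 1519.8, 614 and 492 in doxorubicin, with -1.30 (SE 0.40). In replicate 1 it was just below the lowest vehicle library, and in the others far below. Tufm, the elongation factor that delivers transfer RNAs, had 1771, 1659 and 1756 against 1283, 775 and 575, with -1.06 (SE 0.28). Oxa1l, which inserts new proteins into the inner membrane, was at -0.76 (SE 0.19). Mtfmt (-0.36) and Mtrf1l (-0.60) overlapped.

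Of 20 genes for charging mitochondrial transfer RNAs, 20 were negative and 16 had separate groups, with a median of -0.77. Qrsl1, a subunit of the enzyme that forms glutaminyl-tRNA, had 249.7, 281 and 312 in vehicle and 226, 78.3 and 79.5 in doxorubicin, with -1.31 (SE 0.39). Yars2, the tyrosyl-tRNA synthetase, had 220.5, 228 and 199 against 149, 124 and 89.0, with -0.86 (SE 0.21). Lars2, Pars2, Vars2 and Wars2 had overlapping groups. With all 6 libraries, limma called 0 genes of the 4 lists above at an adjusted p of 0.05, and at an unadjusted p of 0.05 it gave 5 of the 5 other mitoribosomal proteins, 18 of the 24 assembly genes, 13 of the 15 factors and 17 of the 20 charging genes, all lower, against 19.3% of all genes. Without doxorubicin replicate 1, it called 4 of the 5 other mitoribosomal proteins, 17 of the 24 assembly genes, 12 of the 15 factors and 17 of the 20 charging genes lower at that threshold, against 21.8% of all genes.

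Subunits of the respiratory chain and ATP synthase encoded in the nucleus, which join the products of the mitoribosome, had their lowest median in replicate 3. All 75 were negative, against 50.4% of all genes tested, and the median was -0.91. In 71 the groups were separate with doxorubicin lower, against 22.6% of all genes. Per doxorubicin library their medians were -0.46, -0.75 and -1.51, against -0.39, -0.72 and -1.20 for the mitoribosomal proteins. With equal totals, 74 of 75 chain subunits stayed negative, as did 22 of the 24 assembly genes, 19 of the 20 charging genes and all 15 factors. The median member minus the median chain subunit was 0.070, 0.025 and 0.31 in doxorubicin replicates 1 to 3, and -0.026, -0.024 and 0.067 in vehicle, so the groups overlapped for this difference.

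The cytosolic ribosome, which makes all the members, gave a different picture. Of 79 cytosolic ribosomal protein genes, 78 were tested: 40 had negative and 38 positive log2 fold changes, with a median of -0.006. The groups were separate in 3 of them, 2 lower and 1 higher, against 22.6% lower and 19.2% higher over all genes tested. Rpl3 had 1415, 1367 and 1407 in vehicle and 1573, 2743 and 2590.0 in doxorubicin, with 0.68 (SE 0.23), and was the 1 that was higher. The median member minus the median cytosolic gene was -0.008, -0.014 and 0.030 in vehicle and -0.23, -1.04 and -1.03 in doxorubicin, so the doxorubicin libraries lay below all vehicle libraries. The direction of the cytosolic genes themselves depended on the scale: 73 of 78 were positive with equal totals (median 0.30) and 70 with quantile normalization (median 0.20), whereas 70 were negative without doxorubicin replicate 2 (median -0.17).

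**Figure D3:**
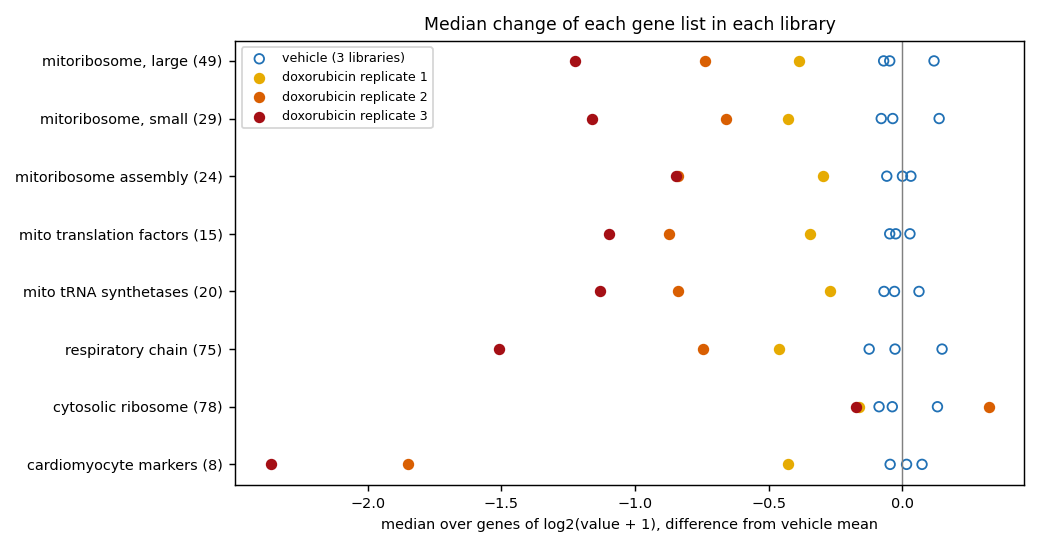
Median log2 difference from the vehicle mean, per library, for 8 gene lists, with the number of genes tested in brackets. Open circles are vehicle libraries and filled circles doxorubicin libraries. The lists of mitochondrial translation lie left of all vehicle circles in every doxorubicin library, while the cytosolic ribosome stays between -0.17 and 0.32.

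Regulators of nuclear genes for mitochondria were mixed in sign. Of 12 tested, 8 were negative and 4 positive, with 4 separate lower and 1 separate higher. The median was -0.34 (-0.04, with 6 of each sign, with equal totals). Over all genes tested, 50.4% were negative, 22.6% separate lower and 19.2% separate higher. With 12 genes, these counts are not read as a difference from that background. Esrra, an orphan nuclear receptor that drives oxidative genes, had 1509.6, 1464 and 1544 in vehicle and 1100.5, 691 and 551 in doxorubicin, with -1.01 (SE 0.25). Tfam, which packages and transcribes mitochondrial DNA, had 356, 421 and 403 against 308, 189 and 210.2, with -0.77 (SE 0.20). In both the groups were separate, with replicate 1 nearest to vehicle. Ppargc1a and Ppargc1b, coactivators of oxidative genes, were at -0.76 (SE 0.29) and -1.37 (SE 0.60), with overlapping groups.

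Of the factors whose motifs were searched, NRF1, YY1 and GABP had transcripts with other values. Other ETS factors and those that bind the ZNF143, CCAAT and TATA motifs are not given here. Nrf1 had 113, 121 and 110.2 in vehicle and 113, 169 and 160.0 in doxorubicin, with 0.33 (SE 0.19). Gabpa, the DNA-binding subunit of GABP, had 462, 521 and 595 against 482, 430.2 and 472, with -0.18 (SE 0.15). Yy1 had 312, 335 and 339.7 against 332, 394 and 406, with 0.19 (SE 0.14). All 3 had overlapping groups. Gabpb1, the activating subunit of GABP, had 123, 90.8 and 93.3 against 127, 131 and 139, with 0.38 (SE 0.18) and separate groups.

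Median fold changes were also compared between members with and without a motif. The 26 genes with an ETS match had a median of -0.71, and those without one -0.80. The medians were -0.82 and -0.76 for the 14 genes with an NRF1 match and the rest, and -0.78 and -0.79 for the 12 with a YY1 match and the rest. The 5 genes with a ZNF143 match had a median of -0.99 and the others -0.75, but these 5 include Mrpl24, the least negative member, as well as Mrpl34.

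Some mitoribosomal genes start close to a gene on the opposite strand, with starts taken here from the outer ends of the RefSeq gene spans. The same search was not made for all genes, so the number below has no background. For 30 members another gene starts within 1000 bases on the other strand, pointing away or overlapping at the start, and for 25 of them that neighbour was tested. The stretches printed lie between the starts of Mrpl30 and Mitd1 and of Mrps11 and Mrpl46, for the latter the part in no annotated exon. They are examples and not the closest pairs. Mrpl54 and Apba3 start 9 bases apart, and some pairs, such as Mrpl44 and Wdfy1, overlap at the start. Whether such genes share a promoter was not tested. The stretches are written on the plus strand in GRCm38.p6 coordinates, and hold no match to the 6 motifs.
Mrpl30 and Mitd1 (chr1:37890450-37890476, strand +): aaacctttcccggaaccaaagaaccgt
Mrps11 and Mrpl46 (chr7:78783090-78783118, strand +): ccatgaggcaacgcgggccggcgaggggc
Of 23 tested neighbours that are not members, 15 had negative and 8 positive log2 fold changes, with a median of -0.15 and a range from -1.15 to 0.86. Over all genes tested, 50.4% were negative. The member was lower relative to its neighbour, by fold change, in 18 of the 23 pairs. The log2 ratio of member to neighbour had separate groups in 11 pairs, lower in doxorubicin in 10 and higher in 1. Every member was negative, and the lower quartile of all genes tested, -0.41, was above the members' upper quartile of -0.65. Most genes would thus stand higher than a member in any pairing, and shares for other pairings were not computed. These pair counts therefore say nothing particular about neighbours.

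Mrpl30 and Mitd1 were the pair furthest apart. Mitd1, a protein of cell division, had 26.6, 24.9 and 16.9 normalized counts in vehicle and 36.6, 28.7 and 66.7 in doxorubicin, with 0.86 (SE 0.37) against -0.84 for Mrpl30. The counts of Mitd1 were low, and its groups separated by a small margin. Mrpl49 (-0.79) starts beside Fau, which encodes a protein of the cytosolic small subunit: Fau had 1482, 1299 and 1264 against 1243, 2386 and 1732, with 0.36 (SE 0.25) and overlapping groups. Mrpl40 (-0.38) starts beside Hira, a histone chaperone, with 0.14 (SE 0.15).

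In other pairs both genes were lower. Mrps27 and Ptcd2, a gene for another pentatricopeptide repeat protein, were at -1.15 and -1.15, and their ratio differed little between groups. Mrps12 and Sars2, the mitochondrial seryl-tRNA synthetase, were at -0.76 and -0.78. Mrpl47 and the complex I gene Ndufb5 were at -0.92 and -1.01. Mrps11 and Mrpl46, a pair of members from opposite subunits, were at -0.69 and -0.85. In 5 of the 23 pairs the member was less negative than its neighbour, and Mrpl36 was the 1 of these whose ratio had separate groups. It was at -0.39 beside -0.90 (SE 0.26) for Ndufs6, a complex I subunit whose start is 21 bases away.

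**Figure D4:**
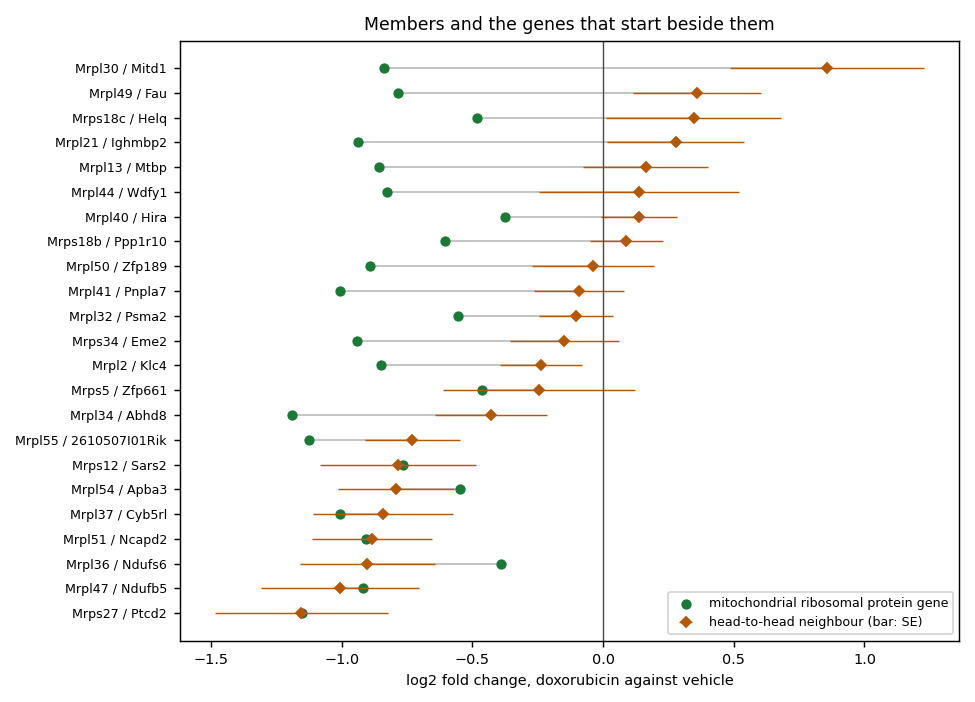
Log2 fold change of members (circles) and of the gene that starts beside each on the opposite strand (diamonds, with the SE), for 23 pairs. The circles all lie below 0, while the diamonds run from -1.15 (Ptcd2) to 0.86 (Mitd1).

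Some members overlap other genes along their length. In 17 members the span overlaps a tested gene, and whether the counting used strand is not stated, so reads of partners on opposite strands cannot be told apart. The 17 members are Mrpl2, Mrpl14, Mrpl18, Mrpl19, Mrpl21, Mrpl24, Mrpl37, Mrpl43, Mrpl44, Mrpl48, Mrpl49, Mrpl53, Mrps6, Mrps7, Mrps23, Mrps25 and Mrps27. For Mrpl53, Mrps6 and Mrps23 the tested partner lies on the same strand, and for the others on the opposite strand. The overlaps are of whole gene spans, and overlap of exons was not examined. For Mrpl24 the partner is Rrnad1, with a mean of 51.3 normalized counts over the 6 libraries and a log2 fold change of -0.02. The handling of reads that match several places is not given either, and it could matter for members with processed pseudogenes.

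Doxorubicin replicates 2 and 3 differed from each other by transcript length. Lengths of the members ran from 418 to 7300 bases, with a median of 1253. Length and log2 fold change were nearly unrelated across members (Spearman's rho = -0.07, n = 78). The difference between doxorubicin replicates 3 and 2 was related to length, with a rho of 0.42 over the members and 0.20 over 12376 genes with a length. The 28 members under 1000 bases had medians of -0.41, -0.54 and -1.26 in replicates 1 to 3, and the 50 others -0.39, -0.82 and -1.15. The split at 1000 bases was chosen after the values were seen. The points share the same 6 libraries, so these correlations are descriptions.

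**Figure D5:**
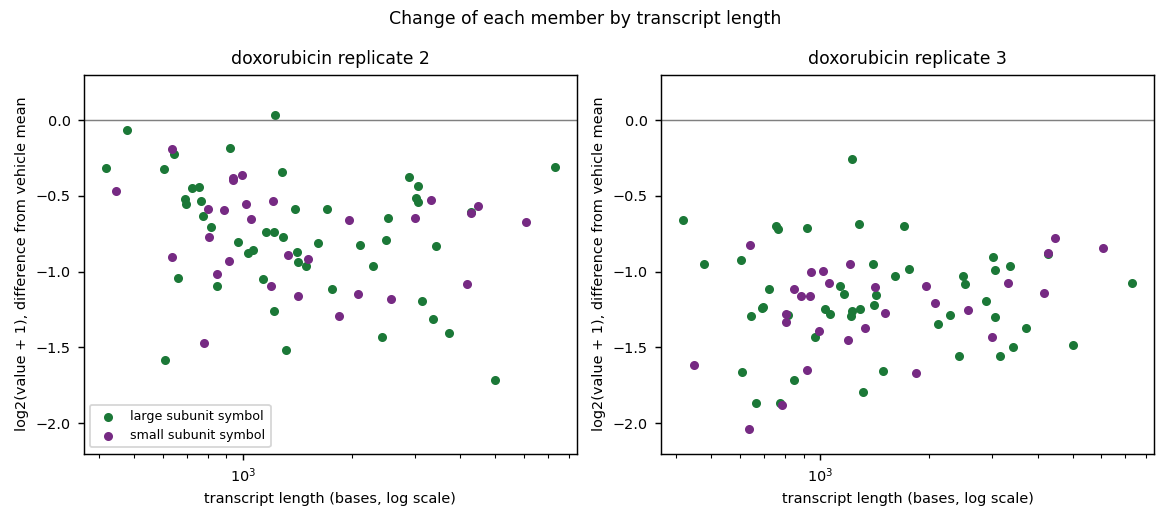
Change of each member relative to the vehicle mean against transcript length (log scale), in doxorubicin replicate 2 (left) and replicate 3 (right), coloured by subunit symbol. Short transcripts lie higher than long ones in replicate 2 (medians -0.54 and -0.82) but not in replicate 3 (-1.26 and -1.15).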

How the data were processed

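The members and all gene lists were chosen with earlier results of these data known. Per the labels, reads were aligned with STAR to mm10 with RefSeq genes, and the submitters' processing notes name STAR 2.6.1a and Salmon. No label or file header states the normalization, the counting step or its use of strand (not given in the sources used here). Each deposited column holds the authors' normalized counts of 1 library, treated as a signal without units. Their low values lie near whole multiples of a step (80.0% to 92.5% within 0.1 step), too few for a test on counts. Values were taken as log2(value + 1), genes with a mean of at least 10 were kept, and limma 3.58.1 in R 4.3.3 (empirical Bayes with trend, two-sided) compared 3 doxorubicin with 3 vehicle libraries. An exact permutation test of 3 against 3 cannot go below p = 0.1. The script was tested on simulated data that gave both groups the spread of the vehicle libraries. No simulated library was set apart from its group, as doxorubicin replicate 1 was.

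Named with values were a fixed set of members and, in each subunit, the 4 most negative and the 4 most positive, the 2 with the smallest p, the 2 highest and 2 lowest per transcript length, and all with overlapping groups. Lengths are medians over GENCODE M21 coding transcripts with a RefSeq mRNA. Promoters and gene positions are from RefSeq (GRCm38.p6, the assembly of mm10), in which all 78 symbols matched. Alternatives covered the pseudocount, filter, scaling, variance prior, library weights, replicate block, Xist or Y class and each library left out. Of the table's names, 26 read as dates and 2 rows repeated a name; none of them is a member.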

Additional observations from a re-analysis of the deposited data

How the results depend on the processing

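The direction held in all 78 members under every alternative except equal totals, where Mrpl24 turned to 0.16. The count of members called lower by limma (0) became 64 with array weights, 64 at an adjusted p of 0.10, and 0 to 73 with 1 library left out, 73 only without doxorubicin replicate 1. Over all genes, calls became 1954 higher and 2318 lower with array weights, 1383 and 1639 at 0.10, and 0 to 2409 higher and 0 to 2718 lower with 1 library left out. Members without overlap were 47 with equal totals, against 10.1% of all genes, and 72 to 76 with 1 library left out. Groups separate more easily with 1 library fewer, and the share over all genes was not computed for those settings. The difference between large and small medians became -0.085 with the Xist or Y class as covariate and -0.074 with array weights, and -0.035 to 0.094 with 1 library left out, so its sign is not fixed. The large subunit median ran from -1.0 to -0.58 and the small from -1.04 to -0.59 with 1 library left out. The cause of these changes was not tested. Same-numbered replicates did not deviate together (correlations of -0.13, 0.03 and -0.09). With a replicate block, 0 members were called, the lowest adjusted p was 0.115 and the medians stayed at -0.79 and -0.81. Depth was lowest in the doxorubicin libraries, and members had 73.0 normalized counts or more in every library.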

Other observations

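The members are spread over 17 chromosomes, with 11 on chromosome 11, 8 on chromosome 17 and 7 on chromosome 6. Of the other cell type markers, the 4 atrial markers had a median log2 fold change of 0.91, but stood at 2.04, 0.02 and 0.53 in doxorubicin replicates 1 to 3 relative to the vehicle mean. The 6 mural markers had a median of -0.15. The 3 erythroid markers tested had a median of -0.48, but stood at 2.64 in doxorubicin replicate 1 and at -2.43 and -2.11 in replicates 2 and 3, relative to the vehicle mean. None (0) of 6 lymphocyte markers was abundant enough to be tested. The lowest doxorubicin value was in replicate 3 for 73 members and in replicate 2 for 5 (Mrpl19, Mrpl35, Mrpl47, Mrpl49 and Mrps9, named after their values were seen). Respiratory chain subunits were in the order replicate 1, 2, 3 from high to low in 65 of 75.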
